A study of Mus musculus with 4 samples.

Results

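Nuclear genes for the mitochondrial ribosome and for mitochondrial protein import were examined in mouse cortical cultures panned for oligodendrocytes, the cells that form myelin. The cultures were with or without Cre to delete floxed Zdhhc5, the gene of an enzyme that attaches palmitate to proteins. The members are all rows of the deposited table whose gene name begins with Mrpl or Mrps and a digit, or with Timm or Tomm. There are 51 of them among 6940 listed genes: 25 Mrpl genes of the large ribosomal subunit, 15 Mrps genes named for the small subunit, 5 Timm genes of import through the inner membrane and 6 Tomm genes of import through the outer membrane. Of the 51 members, 47 were higher and 4 were lower in the knockout cells, most of them by a small amount.

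Cortical cells of C57BL/6 mice aged 5 days (P5) were panned on antibodies to GalC and then O4, grown for 6 days and harvested after 24 h in differentiation medium containing 40 ng/mL of triiodothyronine. The 2 control libraries were Zdhhc5fl/fl without Cre, and the 2 conditional knockout (cKO) libraries were Olig1cre/+;Zdhhc5fl/fl. All cells thus carried the floxed alleles, and Cre, present in the cKO group alone, was driven by Olig1, a gene of the whole oligodendrocyte lineage. What Cre or the altered Olig1 locus does cannot be told apart from what loss of Zdhhc5 does. Because the labels name no separate animals or cultures within a genotype, p-values measure the spread between these libraries, which may be technical. Zdhhc5 itself was not analysed here, and the genotype labels were not checked by its level.

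The mitochondrial ribosome translates the few messages of the mitochondrial genome, which encode core subunits of the respiratory chain and of ATP synthase. All of its proteins are encoded in the nucleus, made in the cytosol and imported. Import starts at receptors on the outer membrane, passes through the Tomm40 pore, and continues through one of the inner membrane translocases, with small chaperones escorting hydrophobic proteins across the space in between. Oligodendrocytes need mitochondria for energy and for lipid precursors while they build myelin membrane.

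The table lists only genes that the authors called. Of 17347 genes behind the authors' adjustment, 40.0% were listed, 18.7% as higher and 21.3% as lower in cKO cells. GENCODE release M21 has 104 protein-coding genes whose names fit the rule, of which 49.0% were listed: 45.2% as higher and 3.85% as lower. How many of the 104 entered the authors' test is unknown. Because every listed gene had already been called, calls for the same libraries are not independent evidence, and all 51 members passed the filter on low values.

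Across the libraries, the listed genes held from 13672254 to 20068016 reads. Oligodendrocyte markers were lower in cKO cells for 12 of 12 genes, with a summed level of 377231 to 378782 normalised reads in controls and 88345 to 89356 in cKO libraries. The 12 genes and their sum include Olig1, whose locus was altered in the cKO group alone. Astrocyte markers were listed for 7 of 8, with 6 higher and 1 lower and sums of 501135 to 501808 and 753169 to 760006. In both genotypes the astrocyte sum was above the oligodendrocyte sum, so the cultures cannot be taken as oligodendrocytes alone. Sums over different genes do not give shares of cells. Pericyte and fibroblast markers were listed for 6 of 8, all 6 higher, with sums of 3400 to 3580 and 10826 to 11206. Microglia markers were higher for the 4 of 7 listed (1298 to 1322 and 2009 to 2109), neuron markers split into 6 higher and 2 lower (18050 to 18354 and 16596 to 16884), precursor markers into 1 higher and 2 lower of 5 (32822 to 33363 and 28421 to 29220), and endothelial markers into 2 higher and 1 lower of 6 (187 to 223 and 222 to 229). No listed marker was at 0 in all libraries. The part of these marker changes in the results below was not tested, and in bulk RNA a change in the number of cells of a type and a change of RNA per cell cannot be told apart.

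Most members rose by similar amounts. Values are normalised reads, meaning reads divided by the authors' size factor for the library, and log2 fold changes come from limma on log2(value + 1). In limma, 47 members were higher and 4 lower at an adjusted p under 0.05, 92.2% and 7.84% of the members, where 46.7% of all listed genes were higher and 53.3% lower. The median log2 fold change was 0.37 over the members and -0.22 over all listed genes. The interquartile range of the members was 0.28 to 0.42, and that of all listed genes was -0.63 to 0.45. In each of the 51 members both cKO values lay on the same side of both control values, as they did in 46.7% (above) and 53.3% (below) of the listed genes. Summed over the members, the level was 57058 and 56134 normalised reads in controls and 69303 and 68842 in cKO libraries, or 0.334% and 0.329% of the listed reads against 0.423% and 0.424%.

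**Figure D1:**
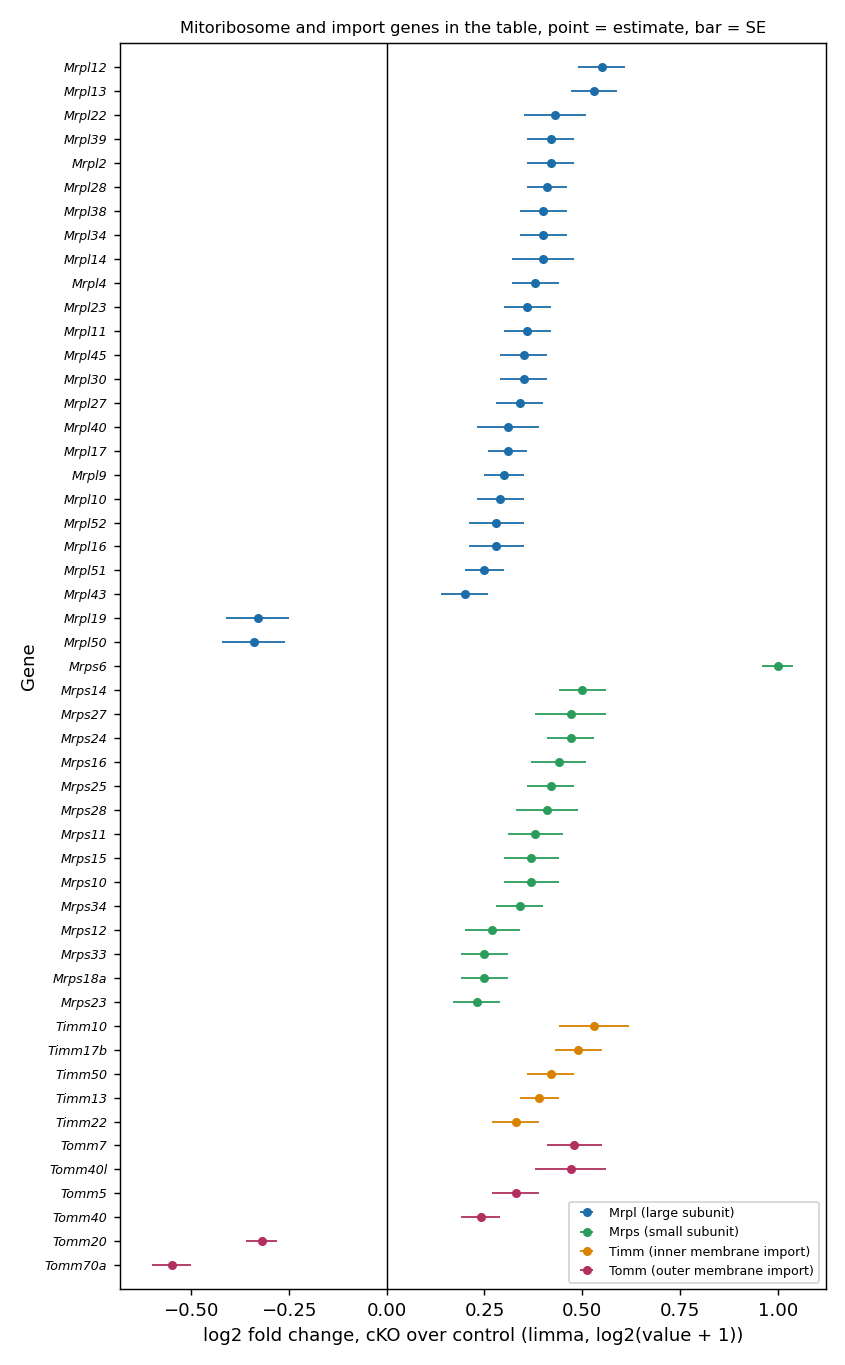
Log2 fold change of each of the 51 members, cKO over control, with the standard error as a bar, grouped by gene name. All Mrps and Timm members lie above 0, Mrps6 stands apart at 1.00, and the 4 members below 0 are Mrpl19, Mrpl50, Tomm20 and Tomm70a.

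Fold changes of the listed genes as a whole moved with gene length and GC content. Over all listed genes, the log2 fold change fell with gene length and rose with GC content (Spearman -0.34 and 0.51 across genes, which are not independent replicates). The members were short, with a median length of 2.11 kb against 4.89 kb for all listed genes, and had a median GC content of 51.7% against 49.4%. When the trend with GC content was removed from each library, 22 members were higher and 0 lower by limma's adjusted p, against 33.0% and 34.6% of all listed genes, and the median of the members was 0.14. At an unadjusted p under 0.05, 28 were higher and 1 lower in that fit. The share of all listed genes at that threshold was not counted, so these 2 numbers have no background. Removing the trend with length left 17 higher and 4 lower (background 39.1% and 41.1%) and a median of 0.08. With both trends removed, 18 were higher and 17 lower (background 32.7% and 35.7%) and the median was 0.04, near the -0.01 of all listed genes. The trends were fitted over the listed genes alone, all of them already called. The trend over all 17347 genes behind the adjustment is unknown, so these fits may remove too much or too little. This holds for every value given below with a trend removed. The part of length and GC content in the change of the members was not tested beyond these fits.

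Members of every GC content were mostly higher. Across the 51 members the log2 fold change had a Spearman correlation of 0.21 with GC content and -0.17 with length, given as a description. When the listed genes were divided into 4 bins of equal size, the bin of lowest GC content ran from 31.0% to 44.1%, and 9.8% of its genes but 6 of its 8 members were higher. In the next bin, up to 49.4%, 32.7% of genes and 9 of 11 members were higher. In the upper bins, where 65.7% and 78.9% of genes were higher, all 17 and all 15 members were. By length, 35 of 36 members in the shortest bin were higher, beside 73.9% of all genes there, and 2 of 3 in the longest bin, beside 23.1%. The low bins hold few members, and no test was made on them.

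**Figure D2:**
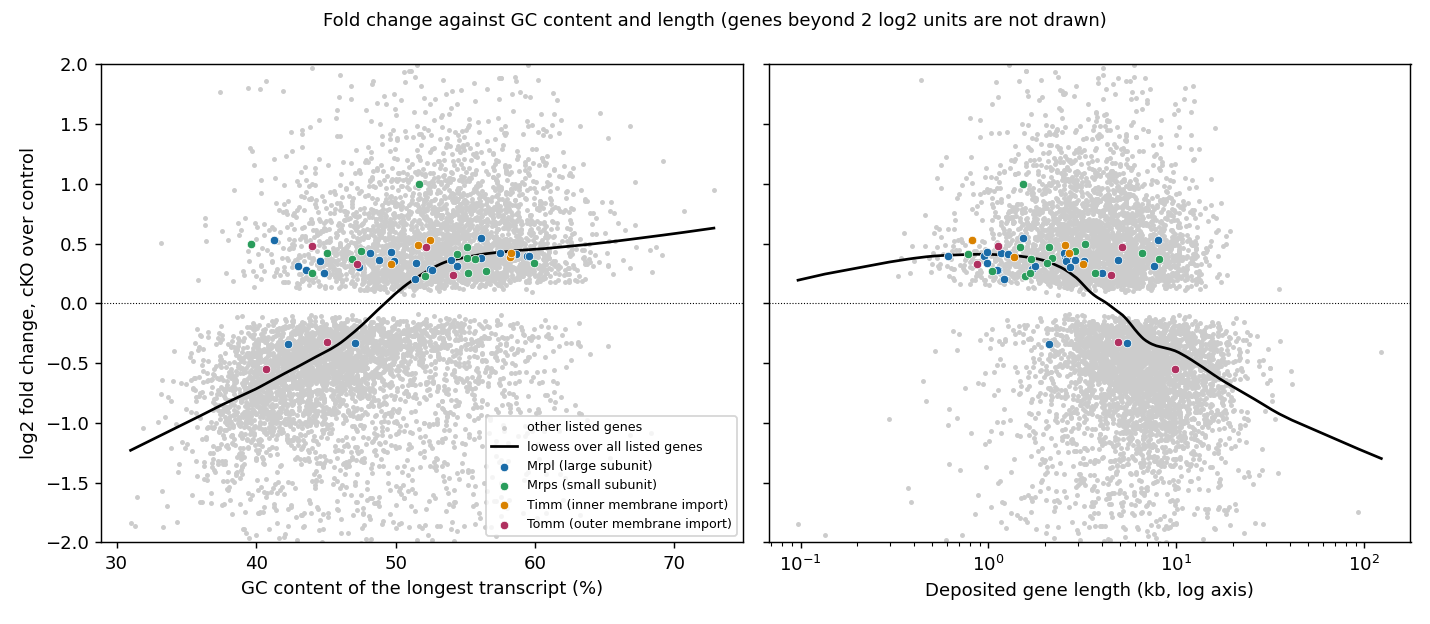
Log2 fold change of each listed gene against GC content of its longest transcript (left, %) and deposited gene length (right, kb, log axis), with members coloured by name group and a lowess line over all listed genes. The line runs from below 0 to above 0 with rising GC content, while 47 of the 51 members lie above 0.

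With members moving together, their promoters were read from RefSeq windows on GRCm38.p6, 250 bases before to 50 bases after the start. A window was found for 43 of the 51 members. Mrpl4, Mrpl13, Mrpl19, Mrpl38, Mrps28, Mrps34, Tomm7 and Tomm40l had none in the table. The 3 motifs searched on both strands stand for regulators of nuclear genes for mitochondria. CCGGAAG, the core bound by ETS factors such as Gabpa, was in 34.9% of members (15 of 43), 17.1% of listed genes and 9.93% of all genes with a window. ATGGCGG, a core of YY1 sites, was in 18.6%, 8.61% and 4.69%, and GCATGCG, a core of NRF1 sites, in 14.0%, 7.22% and 4.01%. In all, 22 of the 43 members held at least 1 motif. The share of all listed genes with any motif was not counted, so the 22 have no background. In 0 member windows did matches of different motifs overlap. A match is a string of letters and not evidence of binding.

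Of the sequences below, Mrps6 is shown as the member with the largest rise, Mrpl22 as the one with all 3 motifs, Timm10 and Timm50 as import genes that rose, and Tomm70a and Mrpl50 as members that fell and hold a motif too. Each runs 5′ to 3′ on the strand of the gene, with matches to any motif, on either strand, in capitals. The windows are chr16:92058086-92058385 (Mrps6, plus strand), chr11:58171414-58171713 (Mrpl22, plus), chr2:84826771-84827070 (Timm10, plus), chr7:28311997-28312296 (Timm50, minus), chr16:57121464-57121763 (Tomm70a, plus) and chr4:49521034-49521333 (Mrpl50, minus).
Mrps6: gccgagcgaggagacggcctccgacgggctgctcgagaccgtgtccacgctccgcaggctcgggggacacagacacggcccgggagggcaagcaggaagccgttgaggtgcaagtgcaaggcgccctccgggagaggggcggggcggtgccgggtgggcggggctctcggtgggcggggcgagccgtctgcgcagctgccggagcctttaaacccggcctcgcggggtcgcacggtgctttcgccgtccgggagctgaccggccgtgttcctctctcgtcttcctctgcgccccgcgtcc
Mrpl22: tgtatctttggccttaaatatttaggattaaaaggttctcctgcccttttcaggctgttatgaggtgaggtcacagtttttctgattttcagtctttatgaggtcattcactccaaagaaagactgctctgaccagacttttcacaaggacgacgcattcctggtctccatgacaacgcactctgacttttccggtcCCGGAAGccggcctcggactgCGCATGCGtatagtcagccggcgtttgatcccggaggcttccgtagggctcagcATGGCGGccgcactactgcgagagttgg
Timm10: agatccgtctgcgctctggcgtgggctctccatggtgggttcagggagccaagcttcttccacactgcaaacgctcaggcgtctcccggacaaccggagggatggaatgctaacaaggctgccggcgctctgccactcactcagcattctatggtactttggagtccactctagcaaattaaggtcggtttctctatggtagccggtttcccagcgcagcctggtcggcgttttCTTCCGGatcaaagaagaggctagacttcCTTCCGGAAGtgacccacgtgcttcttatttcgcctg
Timm50: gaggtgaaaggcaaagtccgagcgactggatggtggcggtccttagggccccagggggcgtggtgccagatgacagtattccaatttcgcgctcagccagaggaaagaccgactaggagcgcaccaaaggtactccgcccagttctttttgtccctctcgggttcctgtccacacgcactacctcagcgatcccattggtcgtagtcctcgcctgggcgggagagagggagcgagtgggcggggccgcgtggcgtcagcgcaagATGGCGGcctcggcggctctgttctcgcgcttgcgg
Tomm70a: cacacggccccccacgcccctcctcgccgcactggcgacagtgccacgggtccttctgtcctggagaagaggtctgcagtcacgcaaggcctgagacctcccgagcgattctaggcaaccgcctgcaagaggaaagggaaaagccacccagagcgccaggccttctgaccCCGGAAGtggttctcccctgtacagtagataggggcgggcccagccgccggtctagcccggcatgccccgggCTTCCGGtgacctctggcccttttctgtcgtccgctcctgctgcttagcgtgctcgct
Mrpl50: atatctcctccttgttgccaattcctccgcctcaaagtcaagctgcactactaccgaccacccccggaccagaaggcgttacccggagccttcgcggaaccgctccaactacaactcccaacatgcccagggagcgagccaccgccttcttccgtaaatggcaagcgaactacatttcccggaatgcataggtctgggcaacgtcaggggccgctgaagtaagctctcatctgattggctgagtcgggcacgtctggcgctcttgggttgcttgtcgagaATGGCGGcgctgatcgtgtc
No motif was found in the Mrps6 window. The ETS motif stood in the windows of both Timm10, which rose, and Tomm70a, which fell, and the YY1 core in those of both Timm50, which rose, and Mrpl50, which fell.

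Genes named Mrps rose in all 15 listed cases out of 29 annotated, with log2 fold changes from 0.23 to 1.00 and a median of 0.38. Mrps6 (ENSMUSG00000039680, chromosome 16, 92058270 to 92112227 on GRCm38), which encodes a small subunit protein with a bacterial counterpart, had 1985 and 1937 normalised reads in controls and 3914 and 3920 in cKO libraries. The cKO values were far outside the spread of either genotype (2.00-fold, log2 fold change 1.00 with an SE of 0.04, limma adjusted p 1.13e-15). It was the only member to rise by at least 1.5-fold, the next largest rise being 1.46-fold. Of its exon bases, 10.4% are shared with Slc5a3, a gene for an inositol transporter on the same strand, and 19.9% with the gene model Gm49711. Neither is listed, and reads from the shared bases cannot be told apart from those of Mrps6.

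Behind Mrps6 came Mrps14, Mrps24 and Mrps27. Mrps14, a small subunit protein with a bacterial counterpart, had 992 and 891.9 normalised reads in controls and 1337 and 1331 in cKO libraries (1.42-fold, limma adjusted p 2.35e-07). Mrps24 had 938 and 883.7 against 1274 and 1257 (1.39-fold, limma adjusted p 3.88e-07), and Mrps27, a protein of the pentatricopeptide repeat family, had 471 and 415.4 against 623.8 and 600.4 (1.38-fold, limma adjusted p 5.01e-05). In each of these genes the lowest cKO value was above the highest control value. Mrps24 shares 15.4% of its exon bases with Urgcp on the same strand, which had a log2 fold change of 0.24. Mrps27 shares 24.2% with 6430562O15Rik on the opposite strand, which was not listed. Without the GC trend, Mrps14 had a log2 fold change of 1.23, while Mrps24 at 0.10 (adjusted p 0.334) and Mrps27 at 0.21 (adjusted p 0.0763) no longer passed.

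The smallest rise was that of Mrps23, from 932 and 1014 to 1150 and 1131 normalised reads (1.17-fold). Without control 1, Mrps23 no longer passed (log2 fold change 0.17), nor did Mrps12 without control 2 (0.19). Mrps18a sits in the large subunit despite its name, and its paralogs Mrps18b and Mrps18c were not listed. Mrps18a had 931 and 953 against 1082 and 1166 (1.19-fold, limma adjusted p 0.00137), and a log2 fold change of -0.12 after the GC trend was removed. Exons of Mrps25 and Mrps34 overlap other genes over 69.8% (Nr2c2, opposite strand) and 63.4% (Mapk8ip3, opposite strand) of their bases, and those of Mrps34 also overlap Nme3 on the same strand (37.0%). No strand setting is given in the sources used here, so their values are uncertain. Nr2c2 had a log2 fold change of -0.49, opposite to the 0.42 of Mrps25.

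Genes named Mrpl rose in 23 and fell in 2 of the 25 listed cases out of 49 annotated, with a median of 0.35 in log2 fold change. Mrpl12, whose protein forms the stalk that recruits translation factors and also binds the mitochondrial RNA polymerase, had 866 and 836.9 normalised reads in controls and 1250 and 1239 in cKO libraries (1.46-fold, log2 fold change 0.55 with an SE of 0.06, limma adjusted p 3.98e-08). Mrpl13, with a bacterial counterpart, had 1031 and 989.6 against 1420 and 1492 (1.44-fold, limma adjusted p 3.69e-08). In both genes the genotypes lay further apart than the libraries of either genotype. Removing the GC trend gave a log2 fold change of 0.15 for Mrpl12 (adjusted p 0.0685), which no longer passed, and 1.15 for Mrpl13.

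Mrpl22 rose from 557 and 515.2 to 721 and 722.6 normalised reads (1.35-fold, limma adjusted p 3.73e-05). Its protein lines the exit tunnel for the nascent chain, as its bacterial counterpart does. Mrpl39 rose from 952 and 935.7 to 1272 and 1261 (1.34-fold, limma adjusted p 1.39e-06) and belongs to the proteins that the mitochondrial ribosome added during evolution. Mrpl10 and Mrpl11, at the base of the stalk with Mrpl12, rose 1.22-fold and 1.29-fold, and Mrpl10 had a log2 fold change of 0.01 after removal of the GC trend. The smallest rise was 1.15-fold in Mrpl43, from 1255 and 1199 to 1431 and 1397, and its call was lost without control 2 (log2 fold change 0.17), as was that of Mrpl40 (0.21). Mrpl43 shares 33.4% of its exon bases with Twnk, the gene of the mitochondrial DNA helicase on the opposite strand.

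Only Mrpl19 and Mrpl50 were lower among the listed ribosomal members. Mrpl19 had 659 and 729 normalised reads in controls and 556.9 and 547 in cKO libraries (1.26-fold lower, log2 fold change -0.33 with an SE of 0.08, limma adjusted p 0.000913). Mrpl50 had 789 and 892.9 against 613.2 and 712 (1.27-fold lower, log2 fold change -0.34 with an SE of 0.08, limma adjusted p 0.000773). The genotypes did not overlap in either gene, though in Mrpl50 the gap between the nearest libraries was smaller than the spread within a genotype. Both falls were lost with relative log expression factors (-0.14 and -0.15), under which 46.8% of listed genes were higher and 42.0% lower. After removal of the GC trend Mrpl19 had -0.09 (adjusted p 0.673) and Mrpl50 turned to 0.22 (adjusted p 0.048). Mrpl19 shares 36.0% of its exon bases with Gcfc2 on the opposite strand.

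The large subunit holds proteins inherited from the bacterial ribosome and others added in mitochondria. Of the Mrpl members with a bacterial counterpart, 16 rose and 1 fell (median 0.36 in log2 fold change). Of the Mrpl members added in mitochondria, 7 rose and 1 fell (median 0.29). The difference between these classes was not tested. Per kb of gene length, the highest level of the large subunit genes was that of Mrpl34, with 2010 normalised reads per kb in controls and 2650 in cKO cells, and that of the small subunit genes was Mrps6, with 1280 and 2560. The median level per kb went from 453 to 576 in the Mrpl genes and from 404 to 512 in the Mrps genes.

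Inner membrane import genes rose in all 5 listed cases out of 16 annotated, with log2 fold changes from 0.33 to 0.53. Timm17b, a channel subunit of the translocase for proteins with a presequence (chromosome X, 7899357 to 7908351), had 914 and 911.2 normalised reads in controls and 1328 and 1245 in cKO libraries (1.41-fold, log2 fold change 0.49 with an SE of 0.06, limma adjusted p 2.03e-07). Timm50, the receptor of that translocase, had 882 and 910.2 against 1153 and 1239 (1.33-fold, limma adjusted p 4.24e-06). Timm22, which forms the translocase for carrier proteins, had 1074 and 1016 against 1264 and 1373 (1.26-fold, limma adjusted p 5.52e-05). All cKO values of these genes lay above all control values. The paralog Timm17a was not listed, so the pair could not be compared.

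Of the small chaperones of the intermembrane space, Timm10 and Timm13 were listed and rose, and Timm8a1, Timm8a2, Timm8b, Timm9 and Timm10b were not listed. Timm10 had 359 and 364.5 normalised reads in controls and 529.9 and 516.2 in cKO libraries (1.45-fold, log2 fold change 0.53 with an SE of 0.09, limma adjusted p 1.35e-05). Timm13, the partner of Timm8 proteins, had 2171 and 2035 against 2772 and 2743 (1.31-fold, limma adjusted p 1.32e-07). In both genes the genotypes were separated by more than the spread within them. In the fit without the GC trend, Timm10, Timm17b and Timm22 still passed (0.26, 0.28 and 0.29), whereas Timm13 and Timm50 had -0.03 and -0.01.

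Outer membrane import genes went both ways, 4 higher and 2 lower of 6 listed and 10 annotated. Of the receptors, Tomm20 and Tomm70a were listed and fell, and Tomm22 was not listed. Tomm70a, the receptor for carriers and other proteins with internal signals (ENSMUSG00000022752, chromosome 16, 57121703 to 57156705), had 2758 and 2750 normalised reads in controls and 1913 and 1855 in cKO libraries (1.46-fold lower, log2 fold change -0.55 with an SE of 0.05, limma adjusted p 3.09e-10). Tomm20, the receptor for presequences (chromosome 8, 126930667 to 126945844), had 5762 and 5662 against 4634 and 4503 (1.25-fold lower, log2 fold change -0.32 with an SE of 0.04, limma adjusted p 7.78e-08). Libraries of a genotype lay close together in both genes, far from those of the other genotype. Both genes have low GC content, 40.7% over a length of 9.78 kb in Tomm70a and 45.1% over 4.91 kb in Tomm20. After removal of the GC trend Tomm70a had a log2 fold change of 0.12 (adjusted p 0.053) and Tomm20 of 0.07 (adjusted p 0.158), so the falls were lost. After removal of the length trend Tomm70a and Tomm20 still passed as falls (-0.15 and -0.25). With both trends removed Tomm70a passed as a rise (0.24, adjusted p 5.84e-05) and Tomm20 did not pass (0.06, adjusted p 0.355).

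The pore gene Tomm40, its paralog Tomm40l and the small subunits Tomm5 and Tomm7 rose, and the small subunit Tomm6 was not listed. Tomm40, the channel of the complex, had 1638 and 1660 normalised reads in controls and 2027 and 1862 in cKO libraries (1.18-fold, limma adjusted p 0.000491), and its log2 fold change of 0.24 turned to -0.12 after removal of the GC trend. Its paralog Tomm40l had 355 and 375.7 against 540.5 and 475.8 (1.39-fold, limma adjusted p 0.000114), but 64.3% of its exon bases are shared with Nr1i3 on the opposite strand. The cKO values of both were above the controls. The rise was 1.26-fold in Tomm5 and 1.40-fold in Tomm7. Tomm7 had 1034 and 976.4 against 1276 and 1544, the cKO libraries being wider apart than the controls, and Tomm5 had 1006 and 951.9 against 1210 and 1255. Per kb of length, Tomm20 had the highest level of the 6 in controls, 1160 normalised reads per kb, and Tomm5 in cKO cells, 1420, where Tomm20 had 931.

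**Figure D3:**
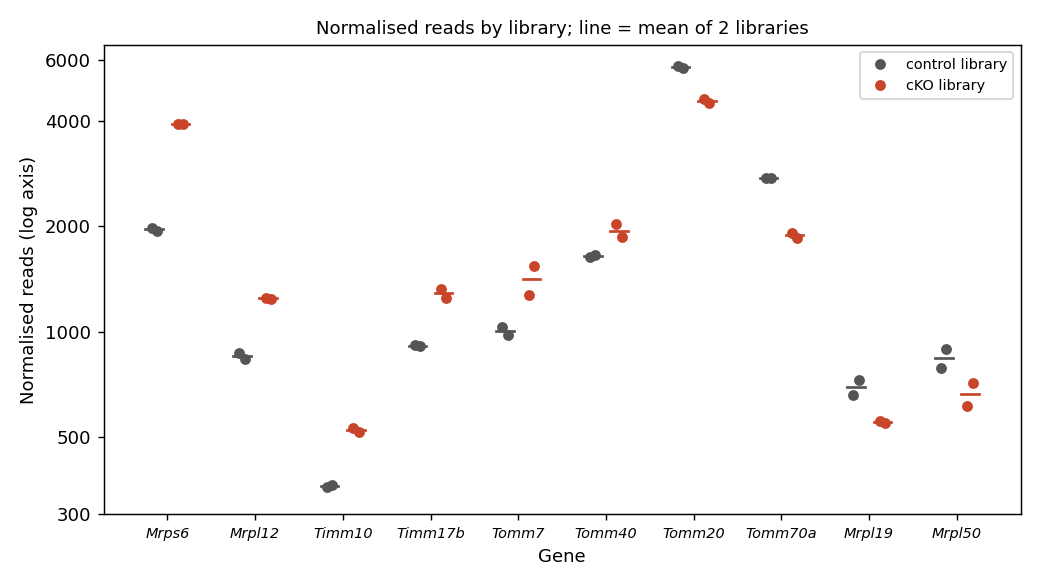
Normalised reads (log axis) of 10 members in each of the 4 libraries, with lines at the mean of each genotype. Control and cKO libraries do not overlap in any of them, with cKO values above in Mrps6, Mrpl12, Timm10, Timm17b, Tomm7 and Tomm40 and below in Tomm20, Tomm70a, Mrpl19 and Mrpl50.

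Across the 3 ways of removing the trends, 10 members were higher by limma's adjusted p in each: Mrpl13, Mrpl17, Mrpl30, Mrpl51, Mrps6, Mrps10, Mrps14, Mrps16, Mrps25 and Timm22. The share of all listed genes higher in all 3 was not counted, so these 10 have no background. Taken alone, the fits called 33.0% (GC), 39.1% (length) and 32.7% (both) of listed genes higher. Mrps25 shares 69.8% of its exon bases with Nr2c2, so its value is uncertain. With both trends removed, Mrpl13, Mrps14 and Mrpl17 had log2 fold changes of 1.27, 1.13 and 0.95, and Mrps6 had 0.60. The GC content of the 10 ran from 39.6% in Mrps14 to 51.7% in Mrps6. The interquartile range of the members was 0.28 to 0.42 with the authors' scaling and -0.18 to 0.38 with both trends removed.

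**Figure D4:**
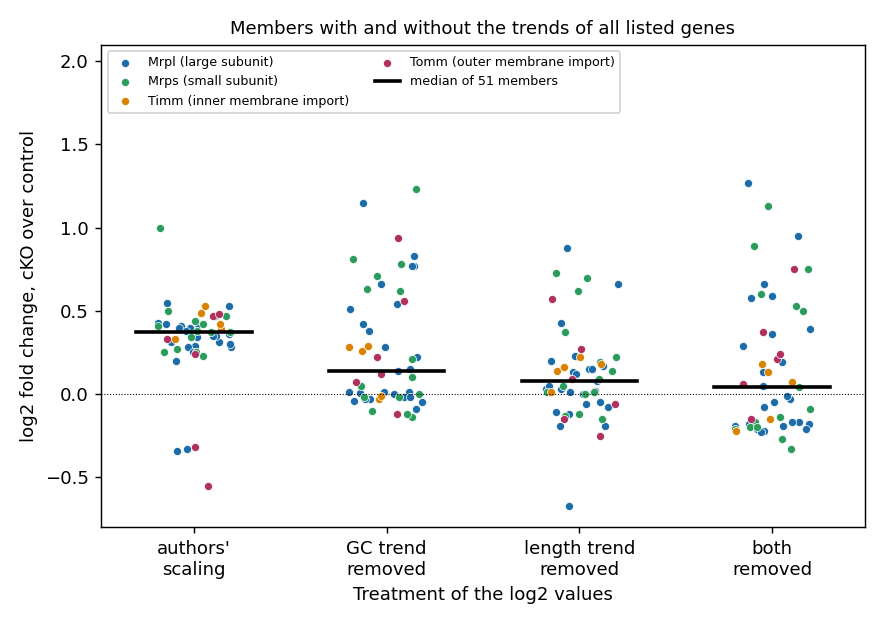
Log2 fold change of the 51 members with the authors' scaling, with the trend with GC content removed, with the trend with length removed, and with both removed, with the median as a line. The medians are 0.37, 0.14, 0.08 and 0.04, and the tight cluster of rises seen with the authors' scaling spreads out once the GC trend is removed.

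Genes that work with the members moved in both directions. Over 7 lists of 116 genes in all, 43 were listed (37.1%, beside 40.0% of all genes). Of these, 29 were higher and 14 lower, where 46.7% of all listed genes were higher and 53.3% lower. The median log2 fold change of the 43 was 0.28. That median was 0.0039 with the GC trend removed, 0.04 with the length trend removed and -0.04 with both removed. With the GC trend removed, 14 were higher and 3 lower by limma's adjusted p (background 33.0% and 34.6%). The counts were 18 and 10 without the length trend (background 39.1% and 41.1%), and 12 and 9 without both (32.7% and 35.7%). Ribosomal proteins with other names rose in all 3 listed of 5 cases: Aurkaip1 1.32-fold, Dap3 1.25-fold and Chchd1 1.17-fold, the call of Chchd1 being lost without control 2 (0.15). Removing the GC trend left Aurkaip1 at 0.0039 (adjusted p 1.0), which did not pass, and Dap3 and Chchd1 at 0.18 and 0.34, which did. Of 25 assembly factors 5 were listed. Mpv17l2 rose 1.35-fold, Rcc1l 1.26-fold and Ngrn 1.22-fold, while Fastkd2, an RNA-binding protein, fell 1.44-fold and Mterf3 fell 1.38-fold. After removal of the GC trend the log2 fold changes of these 5 lay between -0.10 (Rcc1l) and 0.11 (Mterf3).

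Translation factors were listed for 5 of 16, with 3 higher and 2 lower. Tufm, the elongation factor that brings transfer RNA to the ribosome, rose from 1770 and 1835 to 2547 and 2457 normalised reads (1.39-fold), Mrrf, the recycling factor, 1.24-fold and Oxa1l, which inserts new proteins into the inner membrane, 1.21-fold. The call of Mrrf was lost without control 2 (0.24). Guf1, a GTPase, fell from 639 and 546.7 to 308.6 and 327.5 (1.86-fold) and Mtif2, the initiation factor, fell 1.53-fold. Removal of the GC trend ended the calls of both falls (-0.04 for Guf1 and -0.17 for Mtif2) and of the rises of Tufm (0.08, adjusted p 0.272) and Oxa1l (0.01, adjusted p 1.0), while Mrrf still passed (0.27). Of 17 mitochondrial transfer RNA synthetases 4 were listed, and Fars2 rose 1.5-fold, Aars2 1.33-fold and Vars2 1.30-fold, whereas Mars2 fell 1.45-fold and turned to 0.24 (adjusted p 0.0212) after removal of the GC trend. In that fit Fars2 still passed (0.32), and Aars2 and Vars2 did not (-0.02 and -0.06).

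Regulators of mitochondrial DNA and of transcription were listed for 5 of 19, with 1 higher and 4 lower. Gabpa, the ETS-family subunit that binds DNA in the GABP complex, fell from 1669 and 1612 to 1081 and 1050 normalised reads (1.54-fold, limma adjusted p 9.77e-10), and its partners Gabpb2 and Gabpb1 fell 1.61-fold and 1.48-fold. The lowest control value of Gabpa was above the highest cKO value. Polrmt, the RNA polymerase of mitochondria, rose 1.23-fold. Yy1, whose product binds the YY1 motif above, fell 1.18-fold (limma adjusted p 7.08e-05). In the fit without the GC trend Yy1 still passed as a fall (-0.38), as it did with both trends removed (-0.31), but not with the length trend removed (0.02). Gabpb2 passed as a fall without the GC trend (-0.35), but not with the length trend removed (-0.10, adjusted p 0.815) or both removed (-0.14, adjusted p 0.449). Without the GC trend, Gabpa at -2.2e-05, Gabpb1 at -0.20 and Polrmt at -0.14 did not pass.

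Import partners outside the Timm and Tomm names were listed for 12 of 22, with 9 higher and 3 lower. Dnajc15, a cochaperone of the import motor, rose from 462 and 447 to 658.1 and 677.5 (1.47-fold, limma adjusted p 1.85e-06), and the processing peptidases Pmpcb and Mipep rose 1.31-fold and 1.32-fold. Dnajc15, Pmpcb and Mipep also passed after removal of the GC trend (1.01, 0.86 and 0.36). Mtx3, a metaxin of the outer membrane, fell 1.65-fold, Grpel2 1.33-fold and Mtch2 1.09-fold. The calls of Mtx3 (-0.15, adjusted p 0.213) and Grpel2 (-0.07, adjusted p 0.992) were lost after removal of the GC trend. The direction of Mtch2 turned with relative log expression factors (0.06) and after removal of the GC trend (0.45), and its call was lost without control 1 (-0.12). Mitochondrial chaperones and proteases were listed for 9 of 12, with 7 higher and 2 lower. Trap1 rose 1.37-fold, Htra2 1.33-fold and Clpp 1.25-fold, while the protease Yme1l1 fell 1.64-fold, from 1647 and 1703 to 939 and 1109, and the chaperonin Hspd1 fell 1.10-fold. In that fit without the GC trend Htra2 and Clpp had -0.03 and -0.09, Yme1l1 had 0.09, Trap1 still passed at 0.20, and Hspd1 turned to 0.12 (adjusted p 0.00915). Hspd1 also turned with relative log expression factors (0.06), and its call was lost without control 2 (-0.13).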

How the data were processed

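RNA sequencing of 4 libraries was analysed from 1 table, in which the authors deposited a normalised signal per gene and library (reads divided by 1 size factor per library), genotype means, log2 fold changes, p-values and adjusted p-values, and gene lengths, per the file headers. DESeq2, without a version, and the builds mm10 and GRCm38 are named in the submitters' processing notes. Neither aligner, counting tool nor strand setting is given in the sources used here. Values were whole multiples of 1 step, so reads could be recovered: 100% of 6940 values of each library came out whole within 0.01 read. Columns of other samples numbered 0.

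Genotypes were compared on all 6940 genes with limma 3.58.1 (R 4.3.3) after adding 1 and taking log2. The variance followed a mean trend, the model held genotype alone, and 2 residual degrees of freedom remained. A filter kept genes that reached 1 in 2 libraries, which all did. Benjamini-Hochberg adjustment took 17347 genes, read from the deposited p-values. The pooled variance comes from genes selected for their difference, so p-values may be too low. The planned count tests, with edgeR 4.0.16 and DESeq2 1.42.0 on recovered reads, were alternatives, as were other pseudocounts, filters and scalings, removal of lowess trends with GC content (longest GENCODE M21 transcript, known for 6934 genes) and deposited length, a replicate block, and leaving out each library. The fit was also run on simulated data in which most genes were unchanged. Every listed gene had already been called, so that run does not measure error rates for these data. Fold changes of named genes are ratios of mean normalised reads.

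The members and lists were chosen with earlier results of these data known. The rule for naming took up to 4 members with the largest change per direction and name group and listed paralogs, and up to 3 genes per direction of each related list. Members with the smallest changes, with overlapping exons or lost calls, and partners of Mrpl12, and the gene Yy1, were named after their values were seen.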

Additional observations from a re-analysis of the deposited data

How the results depend on the processing

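Counts of members higher and lower stayed within 1.5 times of 47 and 4 under other pseudocounts and filters, edgeR, DESeq2, the variance without a trend, adjustment over listed genes only, and TMM factors. Relative log expression factors left 47 higher and 2 lower. Removing the GC trend gave 22 and 0, the length trend 17 and 4, and both trends 18 and 17. The cause of these shifts was not tested. The factors moved the median of all listed genes from -0.22 by 0.19 (relative log expression) and 0.07 (TMM). The median log2 fold change of all members was 0.56 with relative log expression factors, 0.44 with TMM factors, 0.14 without the GC trend, 0.08 without the length trend and 0.04 without both. In the same order it was 0.54, 0.42, 0.14, 0.03 and -0.03 for Mrpl genes, 0.57, 0.45, 0.10, 0.09 and -0.09 for Mrps genes, 0.61, 0.48, 0.26, 0.16 and 0.07 for Timm genes, and 0.48, 0.35, 0.17, 0.01 and 0.23 for Tomm genes. Leaving out 1 library gave medians of 0.35 to 0.39 over all members. The medians were 0.32 to 0.37 for Mrpl, 0.37 to 0.43 for Mrps, 0.40 to 0.45 for Timm and 0.27 to 0.30 for Tomm genes. The labels number libraries 1 and 2 in each genotype. With the replicate number as a block, 47 members were higher and 4 lower, and no member's call changed. The differences between the numbers correlated at 0.0133 between genotypes, so no effect shared by number was seen across genes. Whether libraries of the same number share a litter or preparation is not given, and this correlation cannot decide it.

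Log2 fold changes that turned with the GC trend removed were those of the members Mrpl14 -0.04, Mrpl28 -0.02, Mrpl34 -0.03, Mrpl38 -0.03, Mrpl4 -0.02, Mrpl40 -0.05, Mrpl50 0.22, Mrpl52 -0.0017, Mrps12 -0.14, Mrps15 -0.02, Mrps18a -0.12, Mrps23 -0.02, Mrps34 -0.10, Timm13 -0.03, Timm50 -0.01, Tomm20 0.07, Tomm40 -0.12, Tomm70a 0.12, and of the related genes Aars2 -0.02, Clpp -0.09, Fastkd2 0.04, Hspd1 0.12, Htra2 -0.03, Mars2 0.24, Mpv17l2 -0.01, Mtch2 0.45, Mterf3 0.11, Ngrn -0.01, Polrmt -0.14, Rcc1l -0.10, Vars2 -0.06, Yme1l1 0.09. With the length trend removed, those of Mrpl10 -0.08, Mrpl16 -0.11, Mrpl27 -0.05, Mrpl40 -0.06, Mrpl43 -0.19, Mrpl52 -0.12, Mrps12 -0.13, Mrps23 -0.15, Mrps33 -0.12, Tomm5 -0.06, and of Chchd1 -0.17, Clpp -0.06, Mtch2 0.24, Ngrn -0.08 turned. With both removed, those of Mrpl10 -0.17, Mrpl12 -0.03, Mrpl14 -0.22, Mrpl2 -0.18, Mrpl23 -0.01, Mrpl27 -0.05, Mrpl28 -0.21, Mrpl34 -0.21, Mrpl38 -0.18, Mrpl4 -0.17, Mrpl40 -0.23, Mrpl43 -0.19, Mrpl50 0.05, Mrpl52 -0.19, Mrps11 -0.17, Mrps12 -0.33, Mrps15 -0.20, Mrps18a -0.21, Mrps23 -0.20, Mrps24 -0.09, Mrps28 -0.14, Mrps34 -0.27, Timm13 -0.22, Timm50 -0.15, Tomm20 0.06, Tomm40 -0.15, Tomm70a 0.24, and of Aars2 -0.04, Aurkaip1 -0.17, Clpp -0.28, Fastkd2 0.08, Gabpa 0.03, Guf1 0.08, Htra2 -0.16, Mars2 0.38, Mpv17l2 -0.20, Mtch2 0.57, Mterf3 0.10, Ngrn -0.19, Oxa1l -0.04, Polrmt -0.17, Rcc1l -0.23, Tufm -0.09, Vars2 -0.05, Yme1l1 0.22 turned. With relative log expression factors, Hspd1 and Mtch2 turned to 0.06 each. These lists cover all members but only the related genes taken by the rule for naming, and other listed related genes turned too. Yy1, named outside that rule, turned to 0.02 with the length trend removed.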
